A study of Mus musculus with 16 samples.

Results

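The regions described here are the DNase hypersensitive regions around Tsku in mouse liver, and how they differed between livers of TCPOBOP-treated and vehicle-treated mice. They are the merged peaks of all 16 deposited peak lists that overlap chromosome 7, 105450000 to 105620000, of build mm9, the window that holds Tsku. This gave 23 regions of 61240 in the whole data set, numbered here as region 1 to region 23 along the chromosome. The locus was chosen by its peaks and its pileup after TCPOBOP and vehicle in these same pools, so its differences between TCPOBOP and vehicle are given as a description. No p-value is given for them, and counts of its regions past a threshold in that contrast describe the locus and do not test it. No mm9 annotation was used, so it is not said which region lies at a promoter, in an intron or between genes, and the liver label could not be checked at marker genes.

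DNase-seq releases short fragments from accessible chromatin with DNase I and counts them by sequencing. The 16 libraries are pools of liver DNA of CD-1 mice, each pool made from 3 to 5 animals that were obtained at 7 weeks of age. They form 8 groups of 2 pools, female and male, 27 h and 3 h after intraperitoneal injection of 3 mg/kg TCPOBOP or of the vehicle alone, 1% DMSO in corn oil. The groups are TCPOBOP and vehicle in 27 h females, in 27 h males, in 3 h females and in 3 h males. The labels give a separate experiment code to each combination of sex and time, so TCPOBOP was set against vehicle within an experiment, and a difference between sexes or times cannot be told apart from a difference between experiments. The material was nuclei of whole liver, in which fewer accessible nuclei and less signal per nucleus cannot be told apart.

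Tsku encodes Tsukushi, a secreted protein of the small leucine-rich proteoglycan family that the liver releases into the blood and that is known to bind ligands of the BMP and TGF-beta pathways and a Frizzled receptor of the Wnt pathway. TCPOBOP is a synthetic ligand of the mouse constitutive androstane receptor CAR, the nuclear receptor by which the liver induces enzymes of drug metabolism, and which binds DNA with its partner RXR. A region where DNase I cuts often is open chromatin, as at active promoters and enhancers. In the RefSeq gene table of GRCm38.p6, a later build, the protein-coding neighbours of Tsku were B3gnt6 and Acer3 on one side and, beyond the long non-coding RNA genes Gm44507 and Gm39053, Gucy2d on the other. Acer3 encodes an alkaline ceramidase, B3gnt6 a glycosyltransferase of mucin-type O-glycans, and Gucy2d an olfactory guanylate cyclase.

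The promoter of Tsku, the gene for which the window was chosen, is shown for the motifs it holds. The 250 bases before the first of its 2 RefSeq start sites (GRCm38.p6, chromosome 7, minus strand, 5′ to 3′) follow, with GC boxes (GGGCGG) in capitals.
Tsku promoter: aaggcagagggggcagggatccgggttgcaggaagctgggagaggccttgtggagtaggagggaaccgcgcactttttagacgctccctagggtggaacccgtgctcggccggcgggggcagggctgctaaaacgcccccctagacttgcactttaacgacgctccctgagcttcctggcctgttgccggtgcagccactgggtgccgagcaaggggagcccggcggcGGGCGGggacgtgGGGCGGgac
The GC boxes began 22 and 9 bases before the start site. Of 6 motifs searched on both strands in the 300 bases of each promoter entry, 250 before the start site and 50 after it, the GC box was the only one in the Tsku entries, and 35.9% of 32544 mouse promoters held it. The others were the nuclear receptor core AGGTCA (in 16.2% of promoters), the direct repeat of that core with 4 bases between (0.0154%), which is the CAR and RXR element, TGTTTAC (3.66%), TTGCGCAA (0.184%) and CCAAT (37.4%); a match of the direct repeat also counts as a match of the core. The first entry was 69.0% G and C, against a median of 53.0% over all promoters, and 88.8% of them had less. These letters describe that window only, which could not be placed among the mm9 regions.

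Sequencing depth was 15679689 to 43618254 tags per library. The pileup of a peak is the number of extended tags over its summit, and it is given here scaled to 1000000 tags of the library, as are all pileups and numbers of tags below. The lowest pileup of any peak in a list was 8 to 13 tags, or 0.298 to 0.510 when scaled, but a peak was called against the background around it, so the height needed was larger where that background was high. In a TCPOBOP pool of 27 h females, region 9 had 95 tags at its summit (3.13 scaled) and a fold of only 2.11 over its background. A region with no peak in a list is therefore not shown to be closed or of low signal there. TCPOBOP pools were deeper than vehicle pools at 3 h in both sexes. Female TCPOBOP pools of 27 h had 25065722 and 30340709 tags against 28624325 and 18044366 in the vehicle pools. Male TCPOBOP pools of 27 h had 28633652 and 36187819 tags against 35822318 and 43618254 in the vehicle pools.

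The 23 regions covered 126.797 kb and had a median width of 669 bp, against 593 bp over all regions. A peak was called in every list at 9 of them (39.1%, against 30.1% of all regions), in 8 to 15 lists at 6 and in 1 to 5 lists at 8. More TCPOBOP lists than vehicle lists held a peak at 12 regions, fewer at 2 and as many at 9, where these shares were 38.8%, 19.1% and 42.1% of all regions. In 27 h females the TCPOBOP pools held a peak at 18 and 18 of the 23 regions, and the vehicle pools at 14 and 11. For 27 h males the numbers were 16 and 20 after TCPOBOP and 15 and 15 after vehicle. In 3 h females they were 16 and 15 after TCPOBOP and 12 and 11 after vehicle, and in 3 h males 16 and 14 after TCPOBOP and 10 and 10 after vehicle. Of all 61240 regions, the TCPOBOP libraries held a peak at 50.3% to 72.3% and the vehicle libraries at 45.0% to 69.4%.

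**Figure D1:**
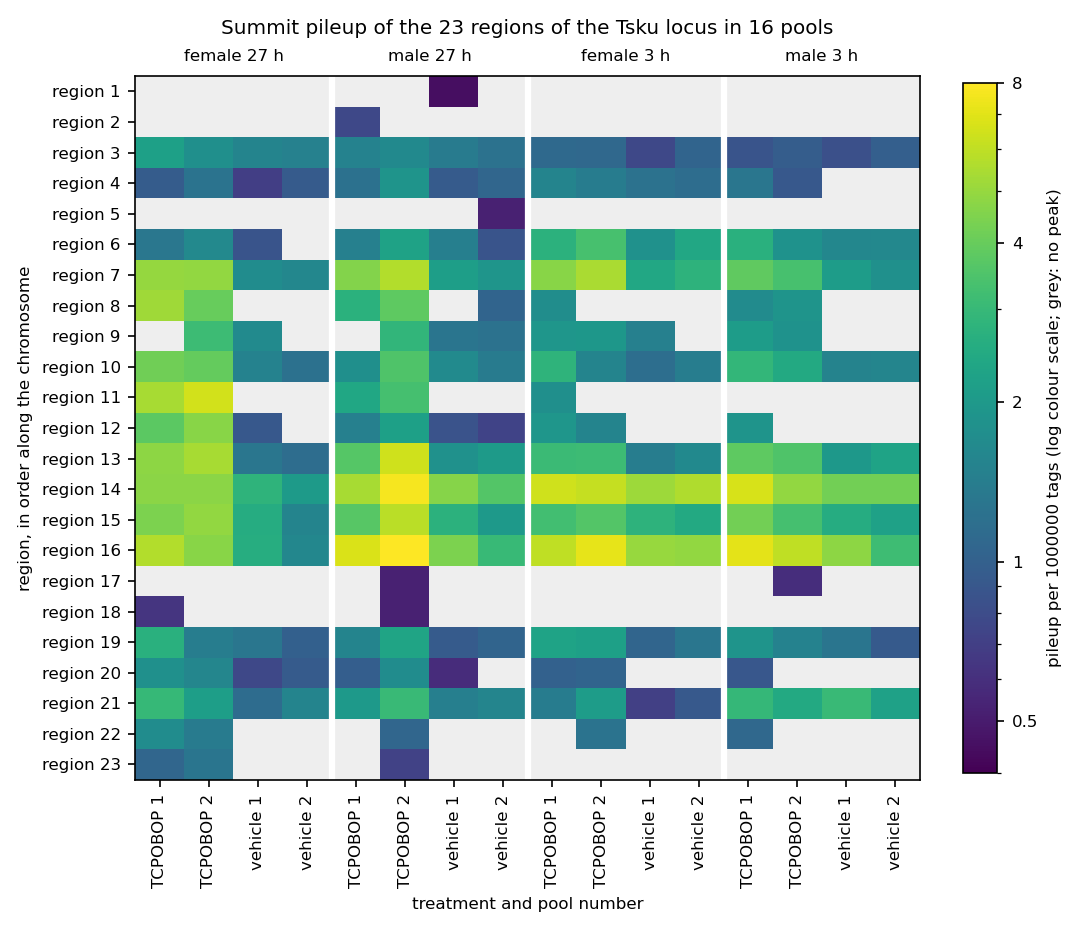
Scaled summit pileup (colour, log scale) of the 23 regions (rows, in order along the chromosome) in the 16 pools (columns, by experiment, TCPOBOP left of vehicle); grey marks a pool with no peak. The 9 regions with a peak in every list form full rows, and region 11 has colour in 5 TCPOBOP pools and in no vehicle pool.

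The largest mean differences lay in a stretch of 14.449 kb, from 105495896 to 105510344, that holds regions 7 to 13. Region 13 (105509360 to 105510344) had the largest mean of the 4 log2 differences among the 9 regions with a peak in every list, 1.196, and region 7 (105495896 to 105496844) came next with 1.0897. Both showed the difference in each experiment, at 3 h as well as at 27 h. Between them lay regions 8, 11 and 12, which few vehicle lists held.

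Region 13 had scaled pileups of 4.83 and 5.41 in TCPOBOP pools, against 1.29 and 1.16 in vehicle pools, in 27 h females. The 27 h males had 3.63 and 6.41 after TCPOBOP, against 1.81 and 2.04 after vehicle. In 3 h females they were 3.09 and 3.11 after TCPOBOP and 1.42 and 1.67 after vehicle. Both TCPOBOP pools were above both vehicle pools in these 3 experiments, and the male 27 h TCPOBOP pools lay further apart than any other pair. In 3 h males the pileups were 3.82 and 3.51 after TCPOBOP and 1.98 and 2.27 after vehicle, again without overlap. The log2 difference, TCPOBOP minus vehicle, after centring each library was 1.98 ± 0.20 in 27 h females, 1.20 ± 0.20 in 27 h males, 1.01 ± 0.20 in 3 h females and 0.60 ± 0.20 in 3 h males (SE, 2 pools per group). Here and below the SE comes from a single fit over all groups. That fit gives each region a single spread, drawn toward that of other regions. The SE is thus the same in each experiment and does not show the spread of the pools of that experiment.

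Region 7 had 4.99 and 4.94 after TCPOBOP, against 1.71 and 1.61 after vehicle, in 27 h females, and 4.58 and 5.66 after TCPOBOP, against 2.15 and 1.90 after vehicle, in 27 h males. At 3 h it had 4.68 and 5.46 after TCPOBOP, against 2.42 and 2.78 after vehicle, in females, and 3.86 and 3.34 after TCPOBOP, against 2.105 and 1.80 after vehicle, in males. No TCPOBOP pool of any experiment was as low as a vehicle pool of that experiment. The log2 differences were 1.50 ± 0.17 and 1.20 ± 0.17 in 27 h females and 27 h males, and 0.96 ± 0.17 and 0.70 ± 0.17 in 3 h females and 3 h males. The called peak was also wider after TCPOBOP at region 7, with a median of 739 bp over the 8 TCPOBOP lists and 459 bp over the 8 vehicle lists, while its median summit moved by 15.5 bp.

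Region 10 (105503319 to 105503894) had 4.19 and 3.96 in TCPOBOP pools, against 1.50 and 1.22 in vehicle pools, in 27 h females, a log2 difference of 1.51 ± 0.25. In 27 h males it had 1.78 and 3.51 after TCPOBOP and 1.67 and 1.40 after vehicle (0.58 ± 0.25), and in 3 h females 2.80 and 1.55 after TCPOBOP and 1.18 and 1.42 after vehicle (0.68 ± 0.25). In 3 h males it had 2.92 and 2.48 after TCPOBOP and 1.53 and 1.57 after vehicle (0.61 ± 0.25). The pools did not overlap, but in 27 h males and in 3 h females 1 TCPOBOP pool lay close to the higher vehicle pool. In 3 h females the log2 difference was 0.23 without TCPOBOP pool 1 and 1.14 without TCPOBOP pool 2, and in 27 h males it was 0.88 without TCPOBOP pool 1 and 0.28 without TCPOBOP pool 2.

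Region 11 (105506532 to 105507212) had a peak in 5 TCPOBOP lists and in no vehicle list. Its pileup was 5.39 and 6.49 in the TCPOBOP pools of 27 h females and 2.37 and 3.32 in those of 27 h males. In 1 female pool at 3 h it was 1.79. At 27 h in females it was thus higher than region 13 in the same pools, and no list of 3 h males held it.

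Region 8 (105497722 to 105498716) had 5.23 and 3.99 after TCPOBOP in 27 h females and no vehicle peak. Its pileup was 2.72 and 3.81 after TCPOBOP in 27 h males, with a peak of 1.05 in 1 vehicle pool. It was lower at 3 h, with 1.69 and 1.89 in the TCPOBOP pools of males, 1.74 in 1 TCPOBOP pool of females, and no vehicle peak in either sex. Region 12 (105508246 to 105509181) had 3.75 and 4.68 after TCPOBOP and 0.908 in 1 vehicle pool in 27 h females, and 1.47 and 2.18 after TCPOBOP against 0.865 and 0.734 after vehicle in 27 h males (log2 1.04 ± 0.24). At 3 h its peaks were in 3 TCPOBOP pools, at 1.55 to 1.93, and in no vehicle pool. The peaks of region 12 did not share 1 summit, since their summits spread over 564 bp. The median summit was at 105508509 in the 7 TCPOBOP lists and at 105508859 in the 3 vehicle lists. Its log2 difference may therefore set different sites against each other.

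Region 9 (105500090 to 105500480) was the exception in this stretch at 27 h. It was called in 1 of 2 TCPOBOP pools of each sex at 27 h, at 3.13 in females and 2.87 in males, while the vehicle pools had 1.68 in 1 female pool and 1.28 and 1.24 in the males. At 3 h both TCPOBOP pools of each sex held it, at 1.83 to 2.09, and 1 vehicle pool of females, at 1.48.

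**Figure D2:**
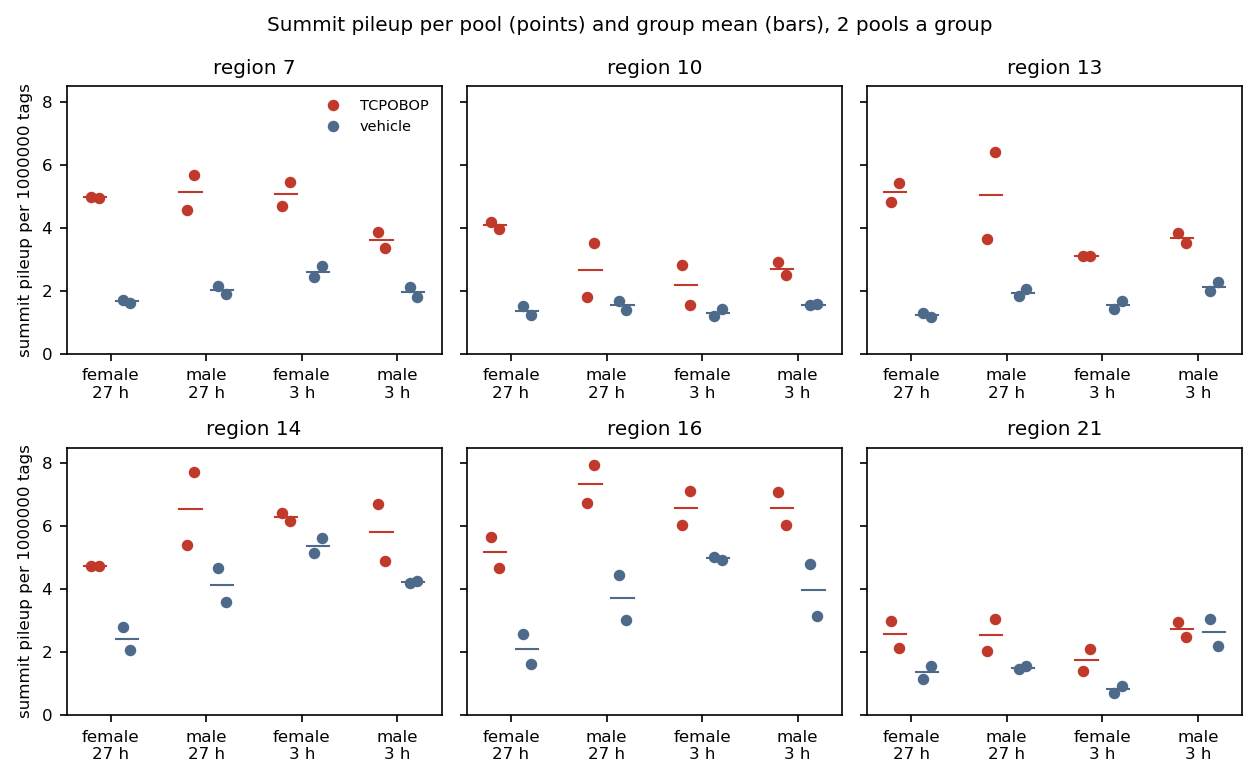
Scaled summit pileup (y axis, linear from 0) of 6 regions in each pool (points, TCPOBOP red and left, vehicle blue) with the mean of the 2 pools (bars), by experiment. Regions 7 and 13 show no overlap between TCPOBOP and vehicle pools in any experiment, and region 21 overlaps in 3 h males.

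A gap of 21354 bp followed region 13, and regions 14, 15 and 16 then covered 9.941 kb. These were the most accessible regions of the locus in vehicle livers in each experiment, by the means of 2 pools, except that region 21 passed region 15 in 3 h males. They too were higher after TCPOBOP, with smaller differences at 3 h than regions 7 and 13. In 3 h males, however, region 16 was within 1 SE of both, and region 15 within 1 SE of region 13. Region 16 (105540795 to 105541639) had 5.67 and 4.68 after TCPOBOP, against 2.59 and 1.61 after vehicle, in 27 h females (log2 1.25 ± 0.20). In 27 h males it had 6.74 and 7.93 after TCPOBOP and 4.44 and 3.00 after vehicle (0.87 ± 0.20). At 3 h the pileups were 6.04 and 7.12 after TCPOBOP against 5.02 and 4.93 after vehicle in females (0.39 ± 0.20), and 7.09 and 6.04 after TCPOBOP against 4.78 and 3.14 after vehicle in males (0.57 ± 0.20). The pools stayed apart in each experiment.

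Region 14 (105531699 to 105532654) had 4.75 and 4.75 after TCPOBOP, against 2.79 and 2.05 after vehicle, in 27 h females, and 5.41 and 7.71 after TCPOBOP, against 4.66 and 3.58 after vehicle, in 27 h males. At 3 h it had 6.42 and 6.17 after TCPOBOP, against 5.13 and 5.61 after vehicle, in females, and 6.70 and 4.91 after TCPOBOP, against 4.21 and 4.24 after vehicle, in males. Its log2 difference was 0.90 ± 0.17 and 0.53 ± 0.17 at 27 h in females and males, and 0.22 ± 0.17 and 0.25 ± 0.17 at 3 h. The 3 h differences were within 1.5 times their SE. Region 15 (105533509 to 105534116), 854 bp further on, had 4.43 and 4.94 after TCPOBOP against 2.55 and 1.55 after vehicle in 27 h females (1.15 ± 0.21), and 3.67 and 5.89 after TCPOBOP against 2.74 and 2.02 after vehicle in 27 h males (0.86 ± 0.21). At 3 h its differences were 0.38 ± 0.21 in females and 0.46 ± 0.21 in males, with TCPOBOP pools of 3.24 to 4.22 and vehicle pools of 2.21 to 2.77.

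The regions beyond were weaker. Region 19 (105561667 to 105562490) had 2.67 and 1.42 after TCPOBOP against 1.29 and 0.998 after vehicle in 27 h females, and 2.27 and 2.21 after TCPOBOP against 1.06 and 1.29 after vehicle in 3 h females, with log2 differences of 0.69 ± 0.26 and 0.93 ± 0.26. In 27 h females the difference was 0.27 without TCPOBOP pool 1 and 1.11 without TCPOBOP pool 2. In males its differences were 0.78 ± 0.26 at 27 h and 0.45 ± 0.26 at 3 h. Region 20 (105566359 to 105567027) was called in all 4 pools only in 27 h females, with 1.79 and 1.58 after TCPOBOP and 0.769 and 0.942 after vehicle (0.90 ± 0.27). In the other experiments it was held by 5 TCPOBOP pools and 1 vehicle pool.

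Region 21 (105571790 to 105572430) differed in its order between experiments. It had 2.99 and 2.14 after TCPOBOP against 1.15 and 1.55 after vehicle in 27 h females (0.84 ± 0.24), and 1.40 and 2.11 after TCPOBOP against 0.708 and 0.925 after vehicle in 3 h females (1.08 ± 0.24). In 27 h males it had 2.03 and 3.04 after TCPOBOP and 1.45 and 1.56 after vehicle (0.59 ± 0.24). In 3 h males the pools overlapped, with 2.95 and 2.48 after TCPOBOP and 3.06 and 2.21 after vehicle, a difference of −0.13 ± 0.24. Regions 22 (105574803 to 105575124) and 23 (105578800 to 105579626) had peaks in 5 and 3 TCPOBOP lists and in no vehicle list, at 0.718 to 1.72.

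At the other end of the window lay regions 3, 4 and 6, each with a smaller log2 difference than regions 7 and 13 wherever all pools held it. Region 3 (105457400 to 105458452) differed by 0.30 ± 0.25 in 27 h females, 0.14 ± 0.25 in 27 h males, 0.30 ± 0.25 in 3 h females and −0.17 ± 0.25 in 3 h males, none beyond 1.5 times its SE. In 3 h males its TCPOBOP pools, 0.867 and 0.971, lay among the vehicle pools, 0.829 and 0.988. Region 4 (105464987 to 105465530) differed by 0.28 ± 0.26 to 0.46 ± 0.26 in the 3 experiments in which all pools held it, and region 6 (105481262 to 105482416) by 0.27 ± 0.25 in 3 h males, 0.53 ± 0.25 in 3 h females and 0.56 ± 0.25 in 27 h males. The last was 0.92 without vehicle pool 1 and 0.20 without vehicle pool 2. The peaks of region 6 did not share 1 summit, since their summits spread over 560 bp, and 10 lists held 2 or more peaks in it. In male 27 h vehicle pool 2 the highest peak had its summit at 105481680, where the median over lists was 105482162. The log2 difference of region 6 in 27 h males may therefore set different sites against each other. Regions 1, 2 and 5 had a peak in 1 list each, and regions 17 and 18 in 2 lists each, at 0.447 to 0.768. The nearest region below the window, 122224 bp from it, was called in 16 lists at a median of 1.71 over the TCPOBOP pools and 1.40 over the vehicle pools. The nearest above it, 9608 bp away, was called in 7 lists at a median of 0.626 over the TCPOBOP pools and 0.449 over the vehicle pools.

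**Figure D3:**
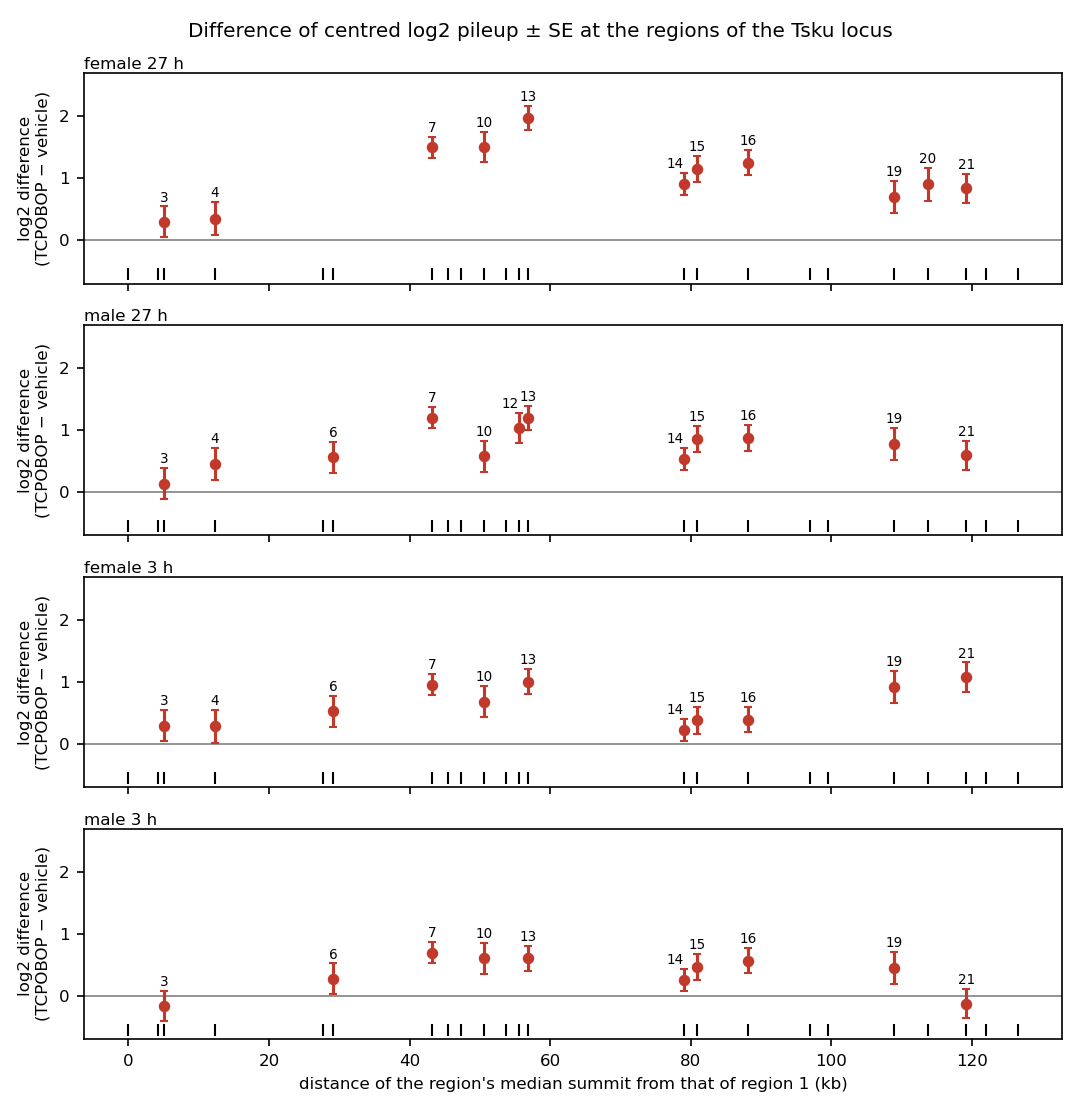
Log2 difference of pileup, TCPOBOP minus vehicle, ± SE (points with bars, y axis) at the numbered regions, against the distance of each region's median summit from that of region 1 in kb (x axis); ticks at the bottom mark all 23 regions, and a region is drawn where all 4 pools held a peak. The highest point is region 13 at 1.98 in 27 h females, and regions 3 and 21 lie below 0 in 3 h males.

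Over the 9 regions with a peak in every list, the median log2 difference was 1.15 in 27 h females, 0.78 in 27 h males, 0.68 in 3 h females and 0.46 in 3 h males. Over all 18443 regions with a peak in every list it was −0.05, −0.01, −0.03 and −0.01 in the same order. Both TCPOBOP pools were above both vehicle pools in scaled pileup at 9 of the 9 in 27 h females (28.1% of the 18443 regions), 9 in 27 h males (23.4%), 9 in 3 h females (16.8%) and 7 in 3 h males (35.9%). After centring each library on its median the counts were 9, 8, 9 and 7, against 21.1%, 19.7%, 17.2% and 19.3% of all regions, since region 3 then overlapped in 27 h males.

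A limma fit over all regions called a region where its Benjamini-Hochberg adjusted p was under 0.05. The locus was chosen with these contrasts known, so its counts are a description and nothing is read from them against the shares of all regions. In 27 h females it called 8 of the 11 locus regions tested higher after TCPOBOP (regions 7, 10, 13, 14, 15, 16, 20 and 21) and 0 lower, where 3.6% of all 25502 tested regions were higher and 2.81% lower. In 27 h males it called 5 of 12 higher (regions 7, 12, 13, 15 and 16) and 0 lower, where 1.67% of all tested were higher and 0.404% lower. In 3 h females it called 3 of 11 higher (regions 7, 13 and 21) and 0 lower, against 1.12% and 0.092% of all. In 3 h males it called 1 of 10 higher (region 7) and 0 lower, against 0.712% and 0.175%. Without centring, 835 regions were higher and 297 lower in 27 h females, against 919 and 716 with it, and the locus still had 8, 5, 3 and 1 regions called higher in the 4 experiments. At an unadjusted p under 0.05 the lower counts were also 0, where 10.2%, 4.85%, 5.42% and 7.32% of all tested regions were lower in 27 h females, 27 h males, 3 h females and 3 h males. Leaving out 1 pool at a time gave 6 to 8 regions higher in 27 h females, 1 to 5 in 27 h males (1 without TCPOBOP pool 2, and 2 without TCPOBOP pool 1 or vehicle pool 2), 1 to 3 in 3 h females (1 without vehicle pool 1, and 2 without vehicle pool 2) and 0 in 3 h males whichever pool was left out.

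Regions gained after TCPOBOP, with a peak in both TCPOBOP pools and in neither vehicle pool, were regions 8, 11, 22 and 23 in 27 h females (4 of 23, against 4.63% of all 61240 regions) and region 11 in 27 h males (1 of 23, against 1.9%). At 3 h they were regions 12 and 20 in females (2 of 23, against 2.5%) and regions 4, 8 and 9 in males (3 of 23, against 3.3%). With all pools, no region of the locus was lost in any experiment, where 0.967%, 1.98%, 0.621% and 0.317% of all regions were lost in 27 h females, 27 h males, 3 h females and 3 h males. In 27 h males 1 region was lost without TCPOBOP pool 2, vehicle pool 1 or vehicle pool 2, and the gained count was 5 without TCPOBOP pool 1, and 2 without any 1 of the other pools. The gained count was 6 in 3 h males without TCPOBOP pool 2, and 4 in 3 h females without TCPOBOP pool 2. No peak number was missing from any list within or beside the window. For comparison, 14 regions lay at the position known for Cyp2b10, the classic CAR target gene on the same chromosome. They included 3, 2, 2 and 1 gained regions in 27 h females, 27 h males, 3 h females and 3 h males. Of those that could be tested, the limma fit called 4 of 4, 4 of 4, 3 of 3 and 3 of 3 higher in that order. The shares of all regions called are given above. That position is general knowledge of the build and was not read from an annotation.

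The tags counted over the 10 kb around the summits were mostly higher after TCPOBOP too. They include the tags of the peak itself and of neighbouring peaks, so signal between peaks was not measured apart. The authors' fold enrichment divides a summit's pileup by the background around it, taken over 10 kb. The tags within 10 kb of each summit could therefore be recovered. They came out whole, within 0.05 of a tag, for all 254545 peaks with a background above the genome mean and under 300 tags before scaling. That check does not cover values past this limit, such as 1389 and 1963 tags before scaling around region 13 in the TCPOBOP pools of 27 h females. The whole-genome mean stands in where it is the higher. Around region 13 there were 55.4 and 64.7 scaled tags within 10 kb in TCPOBOP pools, against 14.5 and 13.2 in vehicle pools, in 27 h females. Male pools of 27 h had 30.0 and 40.1 after TCPOBOP, against 13.4 and 12.5 after vehicle. At 3 h there were 20.6 and 17.9 after TCPOBOP against 9.09 and 8.82 after vehicle in females, and 20.7 and 21.1 after TCPOBOP against 11.54 and 11.9 after vehicle in males. The genome mean is 5.348 scaled tags within 10 kb.

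The highest density was at region 11 in 27 h females, 70.6 and 80.8 in the TCPOBOP pools. From regions 7 to 13 the TCPOBOP pools of 27 h females held 55.4 to 80.8 scaled tags within 10 kb and the vehicle pools 13.2 to 21.03; these ranges overlap on the chromosome, so neighbouring regions share tags. Around region 16 the density in 27 h females was 22.2 and 18.6 after TCPOBOP, against 9.19 and 7.87 after vehicle, and around region 3 it was 12.6 and 14.4 after TCPOBOP against 9.99 and 10.4 after vehicle. In the TCPOBOP pools of these females the density was thus highest between regions 7 and 13 and lower on either side. In vehicle pool 1 it was highest around region 9, at 21.03, with 14.5 around region 13 and 18.2 around region 14. In vehicle pool 2 it was highest around region 10, at 15.96, with 14.96 around region 14.

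Over the 9 regions with a peak in every list, the tags within 10 kb were higher in both TCPOBOP pools than in both vehicle pools at 9 in 27 h females, 9 in 27 h males, 8 in 3 h females and 8 in 3 h males, where this held for 34.0%, 22.4%, 20.2% and 38.2% of all 18443 regions. Region 3 was the exception at 3 h. Their median log2 ratio was 1.20, 0.82, 0.68 and 0.61 in the same order, against 0.03, 0.05, 0.00 and 0.11 over all regions.

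Fold enrichment, the height of a summit over that background, did not separate the groups in the same way. Region 13 had a fold enrichment of 4.24 and 4.10 after TCPOBOP and 4.08 and 3.82 after vehicle in 27 h females, and region 7 had 4.08 and 4.26 after TCPOBOP and 4.45 and 4.53 after vehicle. In 3 h females region 7 had 8.93 and 9.91 after TCPOBOP and 7.09 and 8.07 after vehicle. Region 10 was lower after TCPOBOP at 27 h, with 3.18 and 2.64 against 4.17 and 3.40 after vehicle in females. In 27 h males it had 2.59 and 3.98 against 5.31 and 5.14, a log2 ratio of −0.70 that ranked 18429 from the highest of 18443 regions. At 3 h its log2 ratio was −0.15 in females and 0.01 in males. Both TCPOBOP pools were above both vehicle pools in fold enrichment at 1 of the 9 regions in 27 h females (region 13), 0 in 27 h males, 5 in 3 h females (regions 3, 7, 16, 19 and 21) and 2 in 3 h males (regions 3 and 15), where 22.8%, 20.3%, 20.4% and 34.8% of all 18443 regions did so.

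**Figure D4:**
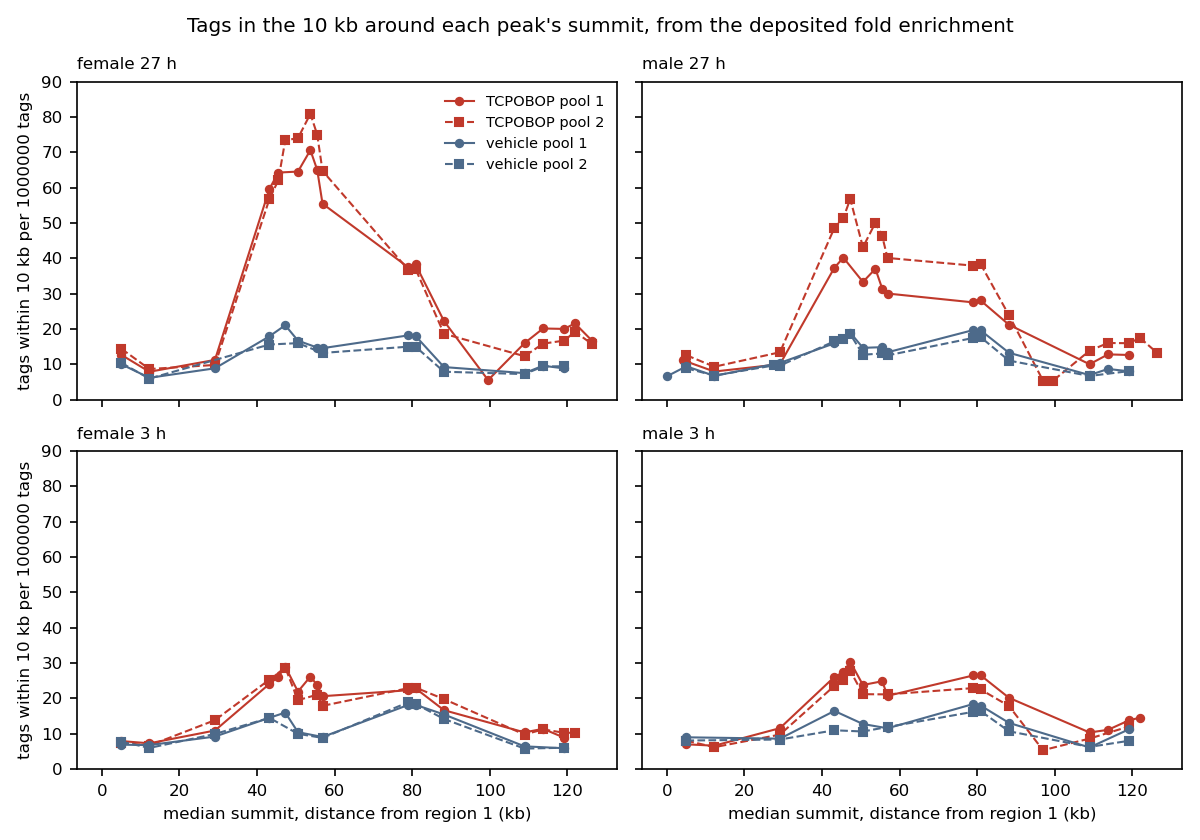
Scaled tags within the 10 kb around each peak's summit (y axis, linear from 0), against the distance of the region's median summit from that of region 1 in kb (x axis), in each pool (TCPOBOP red, vehicle blue; pool 1 circles and solid lines, pool 2 squares and dashed lines). A value at the genome mean is an upper limit. Lines join peaks and no value was measured between them; in 27 h females the TCPOBOP pools reach 70.6 and 80.8 at region 11, while the vehicle pools stay at or under 21.03.

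Differences among vehicle livers were tested between experiments, in which sex and time cannot be told apart from the experiment. The locus was not chosen by these differences, but the vehicle pileups entered the TCPOBOP contrasts by which it was. The p-values below are therefore not free of that choice. Only 10 regions of the locus were tested in each comparison. The counts called are given beside the shares of all regions, and nothing particular to the locus is read from them. In vehicle livers of 3 h females against those of 3 h males, region 21 was the only 1 of 10 tested regions called (5.44% of all 19981 were), with 0.708 and 0.925 in females and 3.06 and 2.21 in males. The difference was log2 −1.71 ± 0.24 (limma, adjusted p = 9.26e-05), and it was −1.88 to −1.54 with 1 pool left out. The female peaks had only 12 and 15 tags before scaling, where the lowest peak of those lists had 8. With only peaks of −log10 q of at least 5, fewer regions of the locus could be tested, 8, and 0 were called. At 27 h the same region did not pass the test, with 1.15 and 1.55 in females and 1.45 and 1.56 in males (0.00 ± 0.24, limma adjusted p = 0.995).

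At 27 h regions 14 and 16 were lower in vehicle females than in vehicle males, 2 of 10 tested, where 14.7% of all 24213 regions differed. The log2 differences were −0.60 ± 0.17 at region 14 (limma, adjusted p = 0.0207) and −0.67 ± 0.20 at region 16 (adjusted p = 0.0268). Neither passed the test without male vehicle pool 1 (adjusted p = 0.268 and 0.366) or without female vehicle pool 2 (0.277 and 0.420), nor with a prior without a mean trend (0.0678 and 0.0866).

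Between times, vehicle females differed at 5 of 10 regions tested, where 37.3% of all 20050 did. At 27 h regions 14 and 16 were lower than at 3 h, with log2 differences of −1.23 ± 0.17 (limma, adjusted p = 4.57e-06) and −1.35 ± 0.20 (adjusted p = 1.03e-05), and so was region 7, at −0.71 ± 0.17 (adjusted p = 0.00202). Region 16 had 2.59 and 1.61 in vehicle 27 h females against 5.02 and 4.93 at 3 h. Regions 3 and 21 were higher at 27 h, by 0.69 ± 0.25 (limma, adjusted p = 0.0277) and 0.66 ± 0.24 (adjusted p = 0.0292), and these 2 calls were lost without female 3 h vehicle pool 1 (adjusted p = 0.181 and 0.176) or female 27 h vehicle pool 2 (0.0884 and 0.274). That of region 3 was also lost without female 27 h vehicle pool 1 (0.0840), and that of region 21 with the spread of these pools alone (0.0584).

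In vehicle males, regions 6 and 21 were lower at 27 h than at 3 h, 2 of 10 tested, where 9.91% of all 22332 differed. The differences were −0.78 ± 0.25 (limma, adjusted p = 0.0452) and −1.05 ± 0.24 (adjusted p = 0.00662). Without centring, neither passed (limma, adjusted p = 0.230 and 0.0551), and neither did without male 3 h vehicle pool 1 or without male 27 h vehicle pool 2 (adjusted p = 0.106 and 0.509 for region 6, 0.0784 and 0.0617 for region 21). Region 21 also missed the threshold without male 27 h vehicle pool 1 (limma, adjusted p = 0.0548). Region 6 missed it without male 3 h vehicle pool 2 (limma, adjusted p = 0.164) and, just, without male 3 h TCPOBOP pool 2 or either male 27 h TCPOBOP pool (0.0502 to 0.0582). It also missed it with the spread of these pools alone (limma, adjusted p = 0.0558) or a prior without a mean trend (0.0756). The peaks of region 6 did not share 1 summit, as given above, so its difference may set different sites against each other. Centring also set the direction of the calls over all regions: of those called between vehicle sexes at 27 h 51.3% were higher in females, against 18.5% without centring, and of those called between times in vehicle males 43.9% were higher at 27 h, against 87.9% without it.

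**Figure D5:**
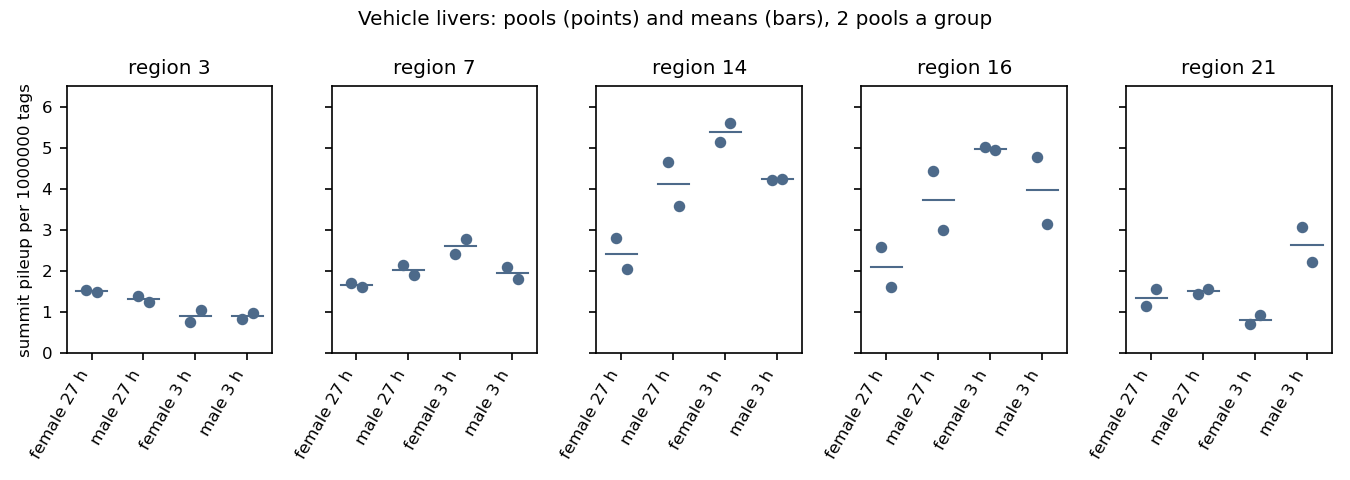
Scaled summit pileup (y axis, linear from 0) of 5 regions in vehicle livers, each pool a point and the mean of 2 pools a bar, by experiment. Regions 14 and 16 are lowest in 27 h females, and region 21 is highest in 3 h males.

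Whether the TCPOBOP effect itself differed was asked by the interaction terms of the limma fit, which called 0 of the 10 regions tested in each of 4 comparisons, where 0.175% of all regions were called for 27 h against 3 h in females, 0.0358% for 27 h against 3 h in males, 0.00826% for 27 h females against 27 h males and 0.005% for 3 h females against 3 h males. These terms are built from the contrasts for which the locus was chosen, so they too are a description. At an unadjusted p under 0.05 the counts of locus regions were 6, 3, 2 and 1 in that order, where 10.8%, 7.75%, 4.93% and 10.5% of all tested regions were under it. In females the log2 effect at 27 h minus that at 3 h was 0.97 ± 0.28 (SE) at region 13, 0.86 ± 0.29 at region 16 and 0.82 ± 0.35 at region 10, while it was −0.23 ± 0.36 at region 19 and −0.24 ± 0.34 at region 21. The effect in females minus that in males was 0.93 ± 0.35 at region 10 at 27 h and 1.21 ± 0.34 at region 21 at 3 h. No difference of effect in the locus passed the adjusted threshold. In vehicle females the level at regions 14 and 16 was lower at 27 h than at 3 h, as given above, and its part in these values was not tested.

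The regions outside the locus whose centred log2 pileup was most like that of region 13 over the 16 pools, among 18443 regions, were on chromosome 14, 17407433 to 17408429 (Pearson r = 0.929), chromosome 6, 67088159 to 67088988 (0.929), chromosome 8, 124241810 to 124242819 (0.926), chromosome 19, 8685442 to 8686561 (0.920), and chromosome 14, 40849370 to 40850069 (0.916). Within the locus r with region 13 was 0.869 at region 15, 0.861 at region 10 and 0.847 at region 7, 0.589 to 0.668 at regions 14, 16, 19 and 21, and 0.188 at region 3. These are descriptions over pools that share libraries and treatment, without a test.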

How the data were processed

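DNase-seq peak lists of 16 pools were analysed. Per the submitters' processing notes, Bowtie (version not given in the sources used here) and build mm9 were used. Per the file headers, MACS 2.1.0.20150731 called the peaks of every pool separately, without a control library, with duplicate reads kept, ends shifted by 100 bp and extended to 200 bp, at a q-value of 0.05. The 27 h libraries were used as single-end reads, per the labels' protocols. The deposited pileup is a signal in tags that the authors did not scale to depth. Fold enrichment, as deposited, is a ratio of pileup to local background, and the authors' −log10 q-value was used only to filter peaks. The heading of 1 female 27 h TCPOBOP list carries another experiment's code, and its command line and peak names its own. The list was used as the pool they name.

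Peaks overlapping by at least 1 bp were merged (Python 3.11.15, pandas 2.3.3, numpy 2.4.6). The highest pileup of a region in a pool was scaled to 1000000 tags, log2 transformed and centred on the library's median over regions with a peak in every list. One limma 3.58.1 fit (R 4.3.3, prior with a mean trend) covered all experiments. A region was tested where all pools compared held a peak, with Benjamini-Hochberg adjustment over all tested. The fit was checked on simulated data with normal noise of 1 spread for all regions. That check cannot show how the fit handles unequal spreads. Regions with a peak in all 4 pools of an experiment are described singly, the lead region is the one of largest mean difference, and the 5 regions most like it are named. The labels do not say that pools of a group came from separate experiments, so p-values measure the spread between pools, which may be partly technical. The locus, its regions and the lists were chosen with earlier results of these data known, and the tags within 10 kb were added after the values were seen. Alternatives changed the centring, the spread, the prior, the replicate block, the peak threshold, the overlap and each pool in turn.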

Additional observations from a re-analysis of the deposited data

How the results depend on the processing

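Of 458 alternative values of the locus' log2 differences after TCPOBOP, 433 stayed within the spread between pools, 25 moved by more and 5 had the opposite sign, all at regions 3 and 21 in 3 h males, where neither was called. The spread, prior and replicate block settings cannot change these differences, and all 44 values of each stayed the same. The spread was taken before centring, so leaving out 1 pool could pass it only through centring. The count of 433 is therefore no measure of robustness. The calls depended on the settings. Over all regions, the numbers called higher were 919, 532, 256 and 163 in 27 h females, 27 h males, 3 h females and 3 h males, and the numbers lower 716, 129, 21 and 40. Without centring these were 835, 671, 140 and 292 higher and 297, 47, 5 and 5 lower, and the share of calls that were higher was 73.8%, 93.5%, 96.6% and 98.3%, against 56.2%, 80.5%, 92.4% and 80.3% with centring; the median of all regions moved from −0.03 to 0.15 in 3 h males and from −0.01 to 0.11 in 27 h males. Centring on the 5000 regions of highest signal made the higher share 66.7% in 27 h females and 70.2% in 3 h males, and no region of the locus was then called in 3 h males. With the spread of the 4 pools alone there were 993 higher and 464 lower in 27 h males, 149 and 10 in 3 h females, and 14 and 0 in 3 h males, where 0 of the locus were called. A prior without a trend gave 422 lower in 27 h females, 85 lower in 27 h males, 124 higher and 4 lower in 3 h females, and 41 and 4 in 3 h males, and called 3 regions of the locus in 27 h males and 0 in 3 h males. Where a peak had to cover 0.5 of its region there were 586 higher and 413 lower in 27 h females, 335 higher in 27 h males, 99 and 13 in 3 h females and 79 and 17 in 3 h males; the locus then had 5, 4, 1 and 0 called higher of the 6, 9, 4 and 4 tested, with 1 gained region in 3 h females and 3 in 27 h males. With only peaks of −log10 q of at least 5, 2 regions were gained in 27 h males.

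Pools of equal number did not deviate together (correlation −0.03 to 0.06 within an experiment), so the number does not pair them. With the replicate block there were 216 lower in 27 h males and 44 in 3 h females, and no region of the locus was called in 3 h males. Leaving out 1 pool gave 400 to 751 higher and 209 to 632 lower in 27 h females, 213 to 278 and 20 to 48 in 27 h males, 104 to 161 and 1 to 75 in 3 h females, and 21 to 162 and 3 to 25 in 3 h males. In the locus it gave 1 to 5 called higher in 27 h males, 1 to 3 in 3 h females and 0 to 0 in 3 h males. Gained regions numbered 2 to 5 in 27 h males, 2 to 4 in 3 h females and 3 to 6 in 3 h males, and lost ones 0 to 1 in 27 h males. In vehicle livers, between sexes at 27 h it gave 0 to 2 calls (0 with a prior without a trend), between times in males 0 to 2 (0 without centring, 1 with the spread of these pools alone or a prior without a trend) and between times in females 3 to 5. The causes were not tested. Depth and the local background limit presence: no peak lay under 0.298 to 0.510 tags in 1000000, by library.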
